A study of Mus musculus with 4 samples.

Results

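Plasmacytoid DC (pDC) genes were examined in RNA of splenic DC sorted for Esam, a gate meant to hold classical DC (cDC). The genes were Siglech, Bst2, Tcf4, Ly6d, Ptprs, Lag3, Klra17 and Blnk, 8 of the 19938 genes that the platform annotation names with a probe set of a single symbol. They were chosen because they mark pDC, and each was represented by its brightest probe set, which here was its only one. The 4 arrays came from 4 mice, 6 weeks old, in 2 litters, with 1 wt and 1 cKO mouse per litter. The wt mice carried Runx3 in DC (DCRunx3 +/+ in the labels), and the cKO mice lacked it there (DCRunx3 -/-) through floxed Runx3 alleles and a Cre transgene driven by the CD11c promoter. CD11c is a cDC marker that pDC carry at a lower level, and no source used here says how far the deletion reached any pDC in the gate. The study reports that pDC lacked Runx3 reporter signal and that pDC frequencies were unaffected in mice with this deletion. Neither report concerns the Esam gate. Cells were enriched on magnetic columns and then sorted as CD11c+ and MHCII+ on Esam, CD4 and CD8, with no pDC marker (B220 or PDCA1) named for this sort.

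pDC are round cells of the DC family, resembling plasma cells, that release large amounts of type I interferon when their endosomal Toll-like receptors meet viral nucleic acid. Their identity is held by the E protein Tcf4 (also called E2-2), which opposes the cDC programme and drives many pDC genes. In mice, Siglech and Bst2 are the surface markers most used to sort them, and the remaining genes are shared to varying degrees with B cells, T cells or other myeloid cells.

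Values are log2 RMA values, that is, probe set intensities after background correction and normalization between arrays, and differences are cKO minus wt on the same scale. With n = 2 per genotype, every array is given, and groups overlap unless both arrays of one genotype lie above both of the other. A probe set was tested if it reached 6.5, the background limit of the study's methods, on at least 1 array. All 8 genes did so, 6 of them on all 4 arrays (91.3% of tested probe sets did), the exceptions being Siglech and Blnk. Levels of different genes are not compared, because probe sets differ in brightness.

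Genes of the labelled cell type and sex were looked at first. Of 14 genes of cDC and Esam DC identity, all were tested, and 1 passed the study's thresholds, Itgam, higher in cKO. Both cKO arrays lay above both wt arrays in 8 (16.4% of all probe sets) and below in 3 (23.7%). The mean value of the 14 was 11.92 and 11.91 on the wt arrays and 11.98 and 12.01 on the cKO arrays. Some of them, such as Esam and Cd4, were used in the sort, so their level does not test the labelled cell type. The labels call all mice male, whereas Xist was high in both mice of litter 1 (12.75 and 12.78) and low in both of litter 2 (5.15 and 5.19). The split ran by litter and not by genotype, and sex and litter cannot be told apart. Runx3 was at 11.37 and 11.51 in wt and at 11.47 and 11.45 in cKO, but where its probes lie relative to the deleted exons is unknown here, and the genotype labels could not be checked with it. The differences of the 8 genes are therefore also given within each litter.

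For the 5 genes with an entry in the RefSeq promoter table, the 250 bases before the start site were searched on both strands for 3 motifs. These were the RUNX motif TGTGGT, the E-box CANNTG that E proteins such as Tcf4 bind, and the interferon response element, a pair of GAAA letters with 2 bases between them. The windows of Siglech, which had the widest difference of the 8 genes, of Blnk, whose groups also did not overlap, and of Bst2, which was not higher in cKO, are shown. Capitals mark the motifs, and the windows (GRCm38.p6, read 5′ to 3′ on the gene's strand) lie at chr7:55767934-55768183 on the plus strand, chr19:40994222-40994471 on the minus strand and chr8:71537473-71537722 on the minus strand.
Siglech: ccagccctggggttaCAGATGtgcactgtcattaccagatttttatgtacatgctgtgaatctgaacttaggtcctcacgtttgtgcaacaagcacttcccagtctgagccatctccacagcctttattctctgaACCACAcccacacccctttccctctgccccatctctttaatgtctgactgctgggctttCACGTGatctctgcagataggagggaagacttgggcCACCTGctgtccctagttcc
Blnk: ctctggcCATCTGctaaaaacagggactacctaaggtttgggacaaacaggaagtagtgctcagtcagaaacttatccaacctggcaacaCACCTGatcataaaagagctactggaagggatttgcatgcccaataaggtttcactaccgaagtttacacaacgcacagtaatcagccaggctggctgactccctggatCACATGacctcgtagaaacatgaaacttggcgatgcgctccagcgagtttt
Bst2: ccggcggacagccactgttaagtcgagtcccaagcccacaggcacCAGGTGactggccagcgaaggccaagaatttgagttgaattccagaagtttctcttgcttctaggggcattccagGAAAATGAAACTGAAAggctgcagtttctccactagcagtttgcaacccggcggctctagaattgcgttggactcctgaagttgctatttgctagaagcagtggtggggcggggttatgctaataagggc
The Siglech window held the RUNX motif once, as ACCACA, and 3 E-boxes. The RUNX letters occur in 14% of the 32851 promoter windows of the table and were found in no other window of these genes. The E-box occurs in 66.2% of windows, and was present 3 times in that of Blnk, once in that of Bst2, once in that of Klra17, and 4 times in 1 of the 2 windows of Ptprs. The interferon element occurs in 2.98% of windows and was found in Bst2 alone among these genes, at 2 positions that overlap. No motif was found in the other Ptprs window. A match describes letters in a window and is not evidence of binding.

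Of the 8 genes, 5 were higher and 3 lower in cKO by sign, and none passed a test adjusted over all probe sets. In Siglech, Tcf4, Ly6d and Blnk both cKO arrays lay above both wt arrays, 4 of 8 genes, against 16.4% of all 18889 tested probe sets (40.1% in either direction). Blnk was tested through the cKO array of litter 2 alone, and with 6.5 required on 2 arrays the count was 3. No gene of the 8 had both cKO arrays below both wt arrays, a pattern shown by 23.7% of probe sets. In both litters 5 genes were higher (23.8% of probe sets) and 1, Bst2, was lower (33.8%). The median difference of the 8 genes was 0.29, beside -0.02 over all tested probe sets, and the medians within litters were 0.19 in litter 1 and 0.39 in litter 2, beside -0.05 and 0.01 over all. The shares cover all tested probe sets, those without a gene symbol included, and were not computed for named genes alone. The genes were chosen with earlier results of these data known, so these counts are a description. In bulk RNA, fewer cells of a type and less RNA per cell cannot be told apart.

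**Figure D1:**
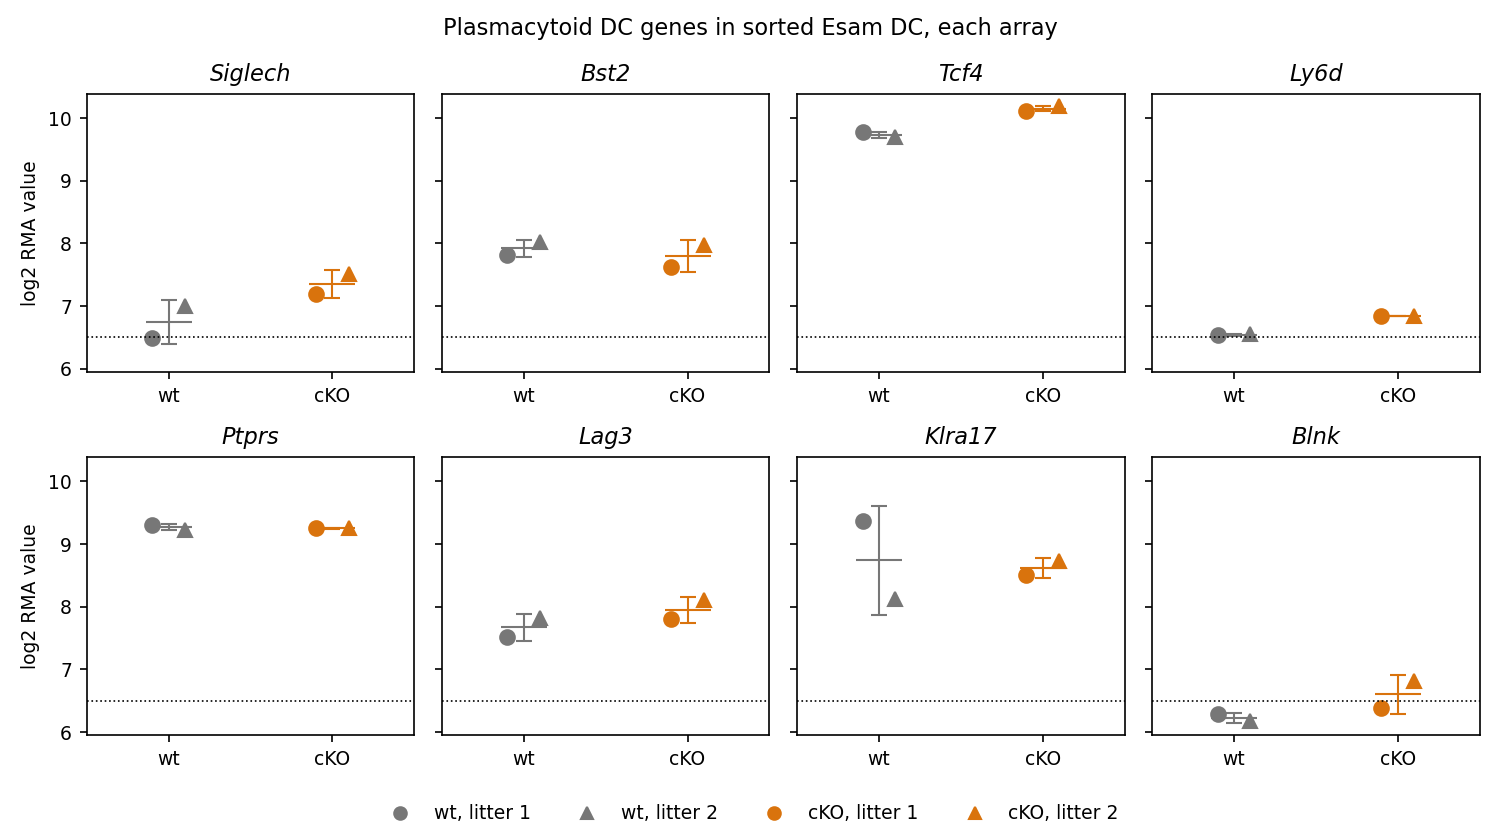
Log2 RMA value (y axis) of each of the 8 pDC genes on the 2 wt arrays (grey) and the 2 cKO arrays (orange), with circles for litter 1 and triangles for litter 2. Bars are the mean and SD of 2 arrays, and the dotted line is the limit of 6.5. The cKO arrays lie above the wt arrays for Siglech, Tcf4, Ly6d and Blnk, and the 2 wt arrays of Klra17 lie 1.23 apart. Blnk reaches the limit on the cKO array of litter 2 alone.

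By limma with Benjamini-Hochberg adjustment over 18889 probe sets, 0 of the 8 genes passed 0.05, with adjusted p from 0.325 (Tcf4) to 0.968 (Ptprs). The share of all probe sets called at that limit was 0%, with a smallest adjusted p of 0.0834. At an unadjusted p under 0.05, 3 of the 8 genes were called, Tcf4, Ly6d and Siglech, all higher in cKO. Such unadjusted calls moved with the setting. Siglech was lost with quantile normalization and with arrays centred on their median, and Ly6d with a trend in the prior spread. With the litter as a block 4 genes were called, Lag3 in addition to these 3, as were 2033 of 18889 probe sets. Without the block, 4.57% of all probe sets were called higher and 4.81% lower at that limit, 1771 of 18889 in either direction. With a single probe set kept for each gene, 1328 of 9894 genes were called in either direction, Tcf4, Ly6d and Siglech among them. The study's thresholds were a fold of 1.5 or more together with p up to 0.05 in a one-way test of the methods. They were passed by 0 of the 8 genes and by 1.41% of probe sets (0.9% higher in cKO). With a single probe set kept for each gene, 183 of 9894 genes passed these thresholds and 0 of the 8 did. In that one-way test, 2 of the 8 genes, Tcf4 and Ly6d, met the limit on p but not that on the fold, and 1, Siglech, met that on the fold but not that on p. Over all probe sets, 1556 of 18889 had p under 0.05 in the one-way test, and those past the fold alone were not counted. With a single probe set kept for each gene, 42 of 9894 genes (0.424%) passed the adjusted threshold and none of the 8 did, the smallest adjusted p among them being 0.124 (Tcf4).

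Tcf4, the transcription factor on which pDC identity depends, was at 9.77 and 9.69 on the wt arrays and at 10.12 and 10.19 on the cKO arrays (probe set 10456522). Its arrays were close within each genotype, and both cKO arrays lay above both wt arrays. The difference was 0.42 with a standard error of 0.09, 1.34-fold, with a 95% interval of 0.19 to 0.66 (limma, adjusted p = 0.325). Within litters it was 0.36 and 0.49.

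Siglech encodes a sialic acid-binding lectin that signals through the adaptor DAP12 and is one of the markers most restricted to pDC. It was at 6.49 and 7.0 in wt and at 7.19 and 7.51 in cKO (probe set 10553559). The wt array of litter 1 lay just under the limit of 6.5, and in both genotypes the litter 2 array was the higher one. The difference of 0.61 (standard error 0.22, 95% interval 0.01 to 1.2, 1.52-fold) was the widest of the 8, and it was the single one of them past 1.5-fold. It did not pass the adjusted test (limma, adjusted p = 0.525). Within litters the differences were 0.70 and 0.51, and without the wt array of litter 1 the difference was 0.36.

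Ly6d, a small GPI-anchored protein that marks B cell-committed and pDC-committed progenitors, was at 6.53 and 6.55 in wt and at 6.84 on both cKO arrays (probe set 10429520). All these values lay just above 6.5, and replicates differed by 0.02 at most. The difference was 0.30 (standard error 0.08, 95% interval 0.08 to 0.52), with 0.31 in litter 1 and 0.29 in litter 2. By limma the adjusted p was 0.433. Its fold was 1.23.

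Blnk, the adaptor that links the kinase Syk to downstream enzymes in B cells and that pDC also use, was at 6.29 and 6.18 in wt and at 6.38 and 6.82 in cKO (probe set 10467508). Of the 4 arrays the cKO array of litter 2 alone reached 6.5, so Blnk was tested on the strength of that array and would leave the test with a limit of 6.5 on 2 arrays. Its difference of 0.37 (standard error 0.18) had a 95% interval of -0.11 to 0.85 (adjusted p = 0.631), and was 0.09 in litter 1 and 0.64 in litter 2. The non-overlap of the Blnk groups rested on a gap of 0.09 between the nearest arrays.

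Lag3, an inhibitory receptor related to CD4 that binds MHC class II and is carried by pDC and activated T cells, was at 7.52 and 7.82 in wt and at 7.80 and 8.10 in cKO (probe set 10547906). The litter 2 wt array was slightly above the litter 1 cKO array, so the groups overlapped. Within litters the difference was 0.28 in each. Without a block, the standard error was 0.17, the 95% interval -0.18 to 0.74 and limma's p 0.166 (adjusted p = 0.714). With the litter as a block p was 0.0425 (adjusted p = 0.449).

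Bst2, also called tetherin or PDCA1, holds budding virus at the cell surface and is induced by interferon in many cells. It was at 7.82 and 8.02 in wt and at 7.62 and 7.97 in cKO (probe set 10579532). The groups overlapped, and the litter 2 array was the higher one in both genotypes. Its difference was -0.12 (standard error 0.16, 95% interval -0.56 to 0.32, adjusted p = 0.882), with -0.20 and -0.04 within litters. Without the cKO array of litter 1 the sign turned, to 0.06.

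Ptprs, a receptor phosphatase that restrains pDC activation and is also used in neurons, was at 9.31 and 9.23 in wt and at 9.26 and 9.25 in cKO (probe set 10452047). Over the 4 arrays its range was 0.07, the narrowest range of the 8 genes. The difference was -0.02 with a 95% interval of -0.25 to 0.21 (adjusted p = 0.968), and it was -0.05 in litter 1 and 0.01 in litter 2. The intervals of Ptprs, Bst2 and Ly6d lay within 1.5-fold in either direction, and those of the other 5 genes did not.

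Klra17 encodes Ly49Q, a receptor for MHC class I that supports interferon release by pDC and is carried by some other myeloid cells. It was at 9.36 and 8.13 in wt and at 8.50 and 8.73 in cKO (probe set 10548437). The 2 wt arrays were the highest and the lowest of the 4, with a range of 1.23, the widest of the 8 genes, and both cKO arrays lay between them. The difference was -0.13 (standard error 0.44, 95% interval -1.33 to 1.07, adjusted p = 0.959), and it was -0.86 in litter 1 and 0.60 in litter 2. Without the wt array of litter 1 it was 0.48 and without that of litter 2 it was -0.74, and neither passed the adjusted test.

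**Figure D2:**
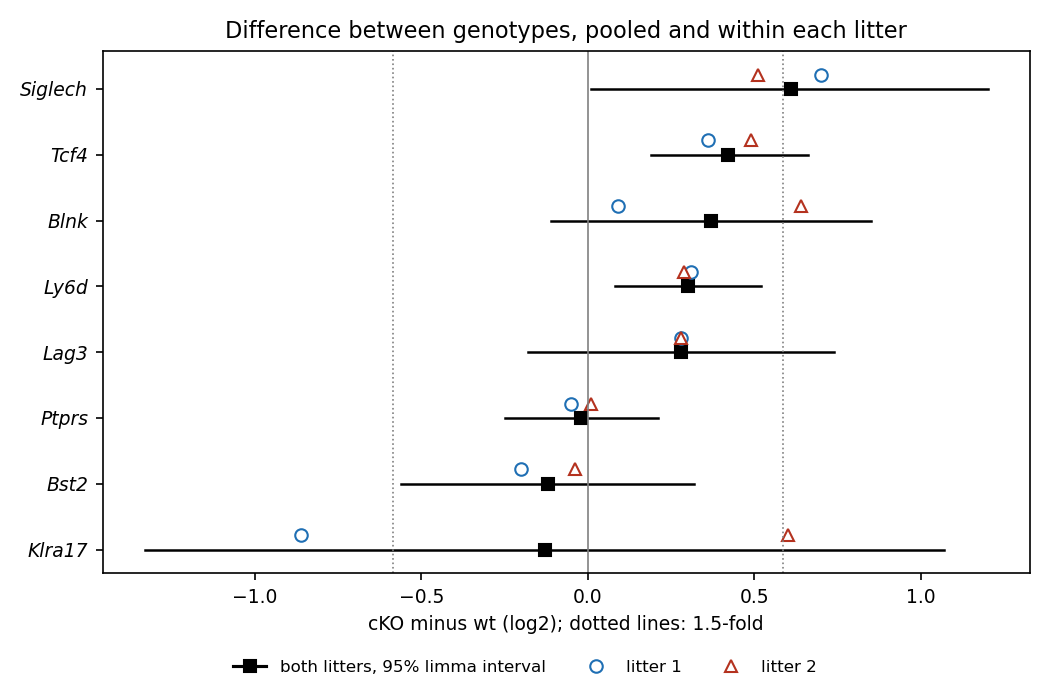
Difference cKO minus wt on the log2 scale (x axis) for each of the 8 pDC genes, pooled with its 95% limma interval (black squares and lines) and within litter 1 (circles) and litter 2 (triangles). Dotted lines mark 1.5-fold. The litters lie close together for Ly6d (0.31 and 0.29) and Lag3 (0.28 in each) and on opposite sides of 0 for Klra17 (-0.86 and 0.60).

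The pattern of Klra17 over the arrays was shared most closely, among 9893 other tested genes, by Gm10851, Plekha5 and Aldh1a2. Aldh1a2, an enzyme that makes retinoic acid from retinal, was at 8.10 and 7.08 in wt and at 7.50 and 7.79 in cKO. After each gene was centred on its own mean over the 4 arrays, the largest gap to Klra17 on any array was 0.18 for Gm10851 and 0.20 for both others. This is a description over 4 arrays. Ly49 genes are highly similar in sequence, and Klra1, Klra4, Klra7, Klra9 and Klra10 have no probe set of their own symbol in the table used, so what related transcripts add to the signal of the Klra17 probe set was not tested. Of its measured relatives, Klra5, its neighbour in RefSeq gene order, differed by 0.23, Klra3 by -0.19 and Klra2 by 0.61 (standard errors 0.14, 0.09 and 0.16), and none passed the adjusted test.

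Relatives of the other surface genes were measured as well. Siglec1, the sialoadhesin of macrophages, was at 6.15 and 5.93 in wt, under the limit, and at 6.54 and 6.70 in cKO, and was tested through the cKO arrays alone. Siglecg, an inhibitory lectin of B cells, differed by -0.29 (standard error 0.08). The groups of both did not overlap, with adjusted p of 0.349 and 0.44. The other tested lectins of this family lay on both sides of 0 as well, Cd22 at -0.34 with groups that did not overlap, and Siglece at -0.19 and Cd33 at 0.18 with groups that did. The last pair were named after their values were seen. Cd4, a relative of Lag3 and its direct neighbour in RefSeq gene order, was at 11.69 and 11.64 in wt and at 11.98 and 12.09 in cKO, a difference of 0.36 (standard error 0.09, adjusted p = 0.405) beside 0.28 for Lag3. Cd4 was used in the sort. Across the whole list of relatives, 0 of 13 tested genes passed the study's thresholds, and 9 of 22 were below 6.5 on every array, among them Ptprd and Ptprf, the relatives of Ptprs, named to list genes under the limit.

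A second list held 25 further genes associated with pDC, not all of them restricted to pDC, of which 23 had a probe set of their own and 16 were tested. By sign 11 were higher and 5 lower in cKO, with a median of 0.29, equal to that of the first 8 genes, and 7 had both cKO arrays above both wt arrays (16.4% of all probe sets) and 4 both below (23.7%). The study's thresholds were passed by 2, both higher. Cox6a2, a subunit of cytochrome c oxidase found in pDC and muscle, was at 6.36 and 6.77 in wt and at 9.11 and 9.38 in cKO, a 6.4-fold difference. Fcrla, an intracellular Fc receptor-like protein of B cells and pDC, was at 7.25 and 6.91 in wt and at 8.22 and 8.37 in cKO. The fold of Fcrla was 2.32, and limma's adjusted p was 0.158 for Cox6a2 and 0.21 for Fcrla. With a single probe set kept for each gene, Cox6a2 passed the adjusted threshold (adjusted p = 0.0345) and Fcrla did not (0.0587).

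The other 14 tested genes of this list did not pass. The lectin gene Cd209d differed by 0.66 (standard error 0.16), with wt arrays at 6.85 and 6.77 and cKO arrays at 7.28 and 7.66. Cbfa2t3, a corepressor needed for pDC formation, pointed the other way, at 11.64 and 11.59 in wt and at 11.31 and 11.21 in cKO. The chemokine receptor gene Ccr9, at 7.95 and 7.32 in wt and at 8.49 and 8.32 in cKO, was named after its values were seen. Members of the list thus lay on both sides of 0, with differences from -0.43 to 2.68.

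In contrast, 7 of the 23 genes were below 6.5 on every array of both genotypes. These were Pacsin1, which directs endosomal receptor signalling in pDC, Mzb1, a chaperone of antibody-secreting cells and pDC, and Upb1, Epha2, Pdzd4, Smim5 and Dntt. Pacsin1 was at 5.65 and 5.39 in wt and at 5.63 and 5.52 in cKO. No value of these 7 genes exceeded 5.97, the level of Smim5 on the wt array of litter 1.

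**Figure D3:**
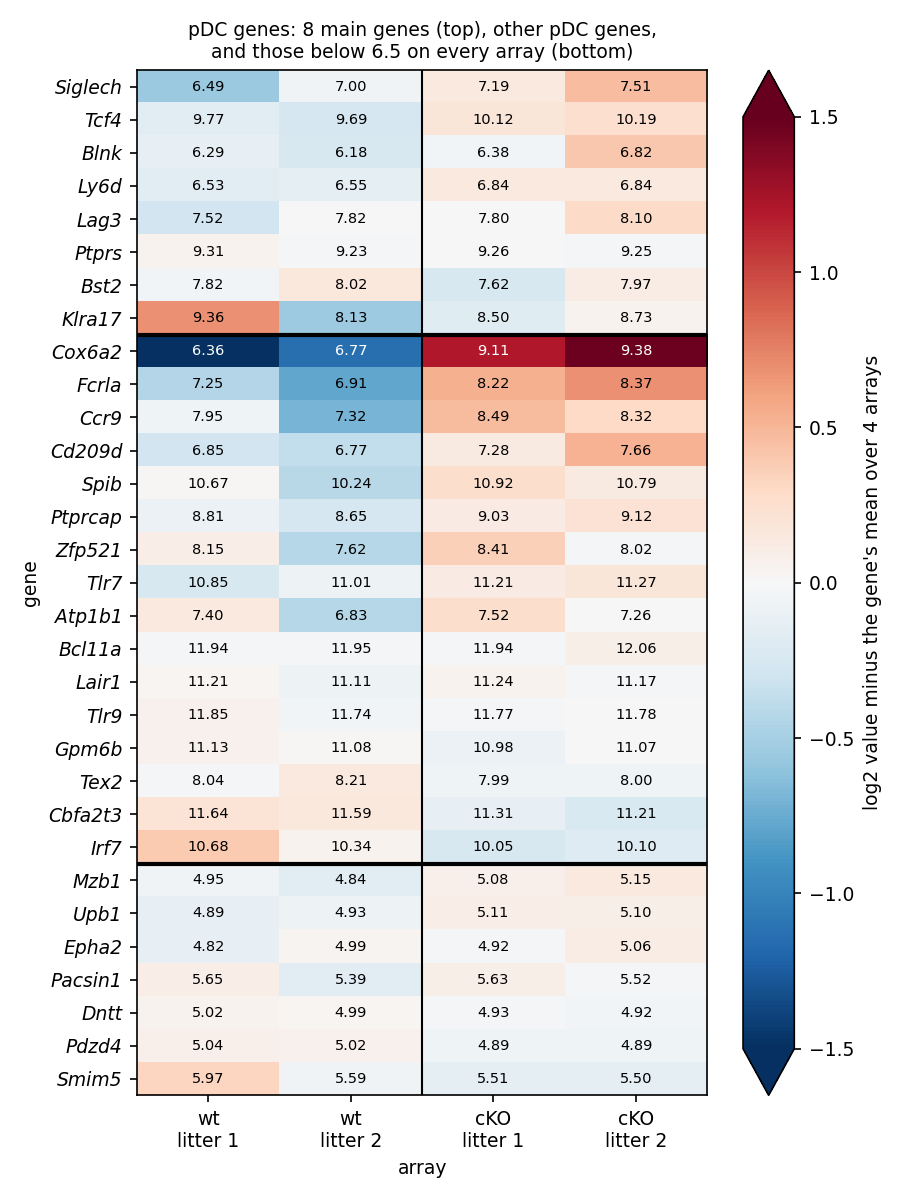
Log2 RMA value (numbers) of each pDC gene (rows) on each array (columns), coloured by its distance from the gene's own mean over the 4 arrays. The top block holds the 8 main genes, the middle block 16 other pDC genes that were tested, and the bottom block 7 that were below 6.5 on every array. Cox6a2 has the strongest contrast, and the bottom block stays at or under 5.97.

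Partners of Tcf4 were set beside it. Of 11 tested E protein genes and factors of the pDC and cDC fates, 6 were higher and 5 lower, with a median of 0.02, and 1 passed the study's thresholds. That gene was Irf8, which both cDC1 and pDC require, at 10.25 and 10.18 in wt and at 11.32 and 11.38 in cKO. The E protein gene Tcf12 was at 9.98 and 9.64 in wt and at 10.29 and 10.28 in cKO (difference 0.48, standard error 0.14, adjusted p = 0.462). Beside the difference of 0.42 for Tcf4, Tcf3, the other E protein gene, differed by 0.02. Irf7, the factor through which pDC switch on interferon genes, was at 10.68 and 10.34 in wt and at 10.05 and 10.10 in cKO, a difference of -0.43. Id2, the inhibitor of E proteins that cDC express, was at 12.93 and 13.08 in wt and at 12.85 and 12.87 in cKO, and was named after its values were seen, as was Tcf3.

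Of 11 tested genes on a list of signalling partners of DAP12 and Blnk, none passed the study's thresholds, 5 were higher and 6 lower, and the median was -0.01. Tyrobp, which encodes DAP12, differed by 0.07 with a 95% interval of -0.16 to 0.30, and the kinase gene Syk by 0.03 (-0.22 to 0.29), both named after their values were seen. The one wide difference was that of Blk, a Src family kinase of B cells and pDC, at 7.40 and 8.22 in wt and at 6.41 and 6.42 in cKO. Its cKO values were under the limit, and it was tested through the wt arrays alone. Blk differed by -1.40 (standard error 0.29, adjusted p = 0.334), opposite in sign to the adaptor gene Blnk.

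For endosomal Toll-like receptors and interferon production, by which pDC are known, 0 of 11 tested genes passed the study's thresholds and the median was -0.01. Tlr8 differed by 0.67 (standard error 0.21) and Tlr7, a sensor of single-stranded RNA, by 0.31 (0.10), while the adaptor gene Myd88 differed by -0.22 (0.09). Interferon-stimulated genes were considered beside Bst2. Of 18 tested, 16 were lower and 2 higher by sign, beside 10414 lower and 8475 higher of all 18889 probe sets. Both cKO arrays lay below both wt arrays in 11 (23.7% of all probe sets) and above in 1 (16.4%). The median was -0.24 (-0.33 in litter 1 and -0.12 in litter 2), and none passed the thresholds. Ifit3 was at 12.00 and 11.60 in wt and at 11.20 and 11.13 in cKO. Bst2, at -0.12, lay on the same side of 0 as most of these genes, whose part in its value was not tested.

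Markers of other cells were set beside the pDC genes. Of 16 B cell markers with a probe set, 12 were tested, 8 higher and 4 lower in cKO by sign with a median of 0.24, and the list mean was 7.72 and 7.64 on the wt arrays and 7.89 and 7.78 on the cKO arrays. The B cell factor genes Pax5, Ebf1 and Pou2af1 and the gene Vpreb3 were below 6.5 on every array. Other defining B cell genes were above it on every array, Cd79a at 7.37 and 7.01 in wt and at 7.56 and 7.69 in cKO, Cd79b from 10.31 to 11.25 and Ms4a1 from 9.05 to 9.95, all named after their values were seen. Fcer2a, the low-affinity IgE receptor gene, was at 6.19 and 6.44 in wt and at 7.35 and 7.34 in cKO. It was under 6.5 on both wt arrays and was tested through the cKO arrays alone. It was the 1 gene of this list past the study's thresholds. Blk (-1.40) and Cd22 (-0.34) were lower by sign, with groups that did not overlap. Of the T and NK cell markers 13 of 17 were below 6.5 on every array, Cd3e, Cd3d and Cd3g among them. The 4 tested lay on both sides of 0, and none passed the study's thresholds. Klrd1 lay between 11.54 and 11.75, Cd5 between 9.07 and 9.49 and Thy1 between 6.06 and 6.55. Nkg7 was at 6.15 and 5.44 in wt and at 6.81 and 6.31 in cKO, with groups that did not overlap. It reached 6.5 on the cKO array of litter 1 alone and was tested through that array. The list mean lay between 5.99 and 6.12 in wt and between 6.11 and 6.20 in cKO. The part of B, T and NK cells in the values of Ly6d, Blnk and Lag3 was not tested.

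Markers of cDC1 and macrophages were measured likewise. Of 15 tested cDC1 genes 11 were past both limits of the study, each of them higher in cKO, with a median of 1.13 and a list mean of 9.25 to 9.34 in wt and of 10.18 to 10.27 in cKO. The receptor gene Clec9a differed by 1.47. Wdfy4 and Batf3, both needed by cDC1, were the 2 genes of the list lower by sign, each at -0.29 with groups that did not overlap and neither past the thresholds. Of 14 tested macrophage and monocyte markers 5 passed, each higher, with a median of 0.73 and a list mean of 9.08 to 9.29 in wt and of 9.84 to 9.94 in cKO. The means of the 8 pDC genes were 7.88 and 7.83 in wt and 7.96 and 8.17 in cKO. Mean levels are not compared between lists, because probe sets differ in brightness. The part of cDC1 or macrophages, or of the shared gene Irf8, in the differences of Siglech, Tcf4, Ly6d and Blnk was not tested.

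**Figure D4:**
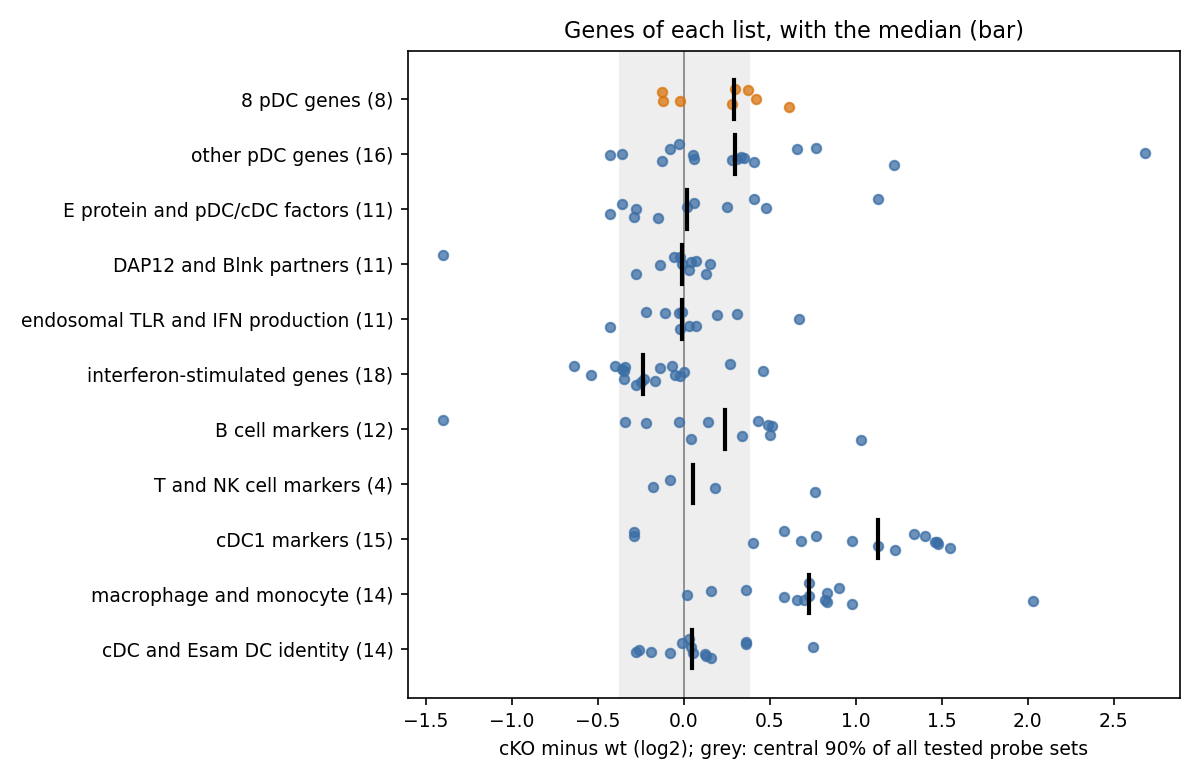
Difference cKO minus wt on the log2 scale (x axis) of each tested gene of the 8 pDC genes (orange) and of 10 other gene lists (blue), with the number tested in brackets and the list median as a bar. The grey band spans the central 90% of all tested probe sets, from -0.37 to 0.38. The 8 pDC genes run from -0.13 to 0.61, and cDC1 markers have the highest median, 1.13.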

How the data were processed

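RNA of sorted splenic Esam DC from 2 wt and 2 cKO mice was hybridised to Affymetrix 1.0 ST arrays, 1 array per mouse. The authors deposited log2 values, 1 per probe set and array, made from CEL files in Partek with RMA (robust multichip averaging, with GC correction). In the submitters' processing notes Partek, RMA and the build mm9 are named, with no versions. Array medians lay between 6.58 and 6.62. The number of arrays limits the precision, and no background value per probe set was analysed.

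Of 35399 probe sets, 21789 carried 1 symbol in the platform annotation, 1621 several and 11989 were not listed. All 8 pDC genes matched RefSeq by gene ID. Probe sets reaching 6.5 on at least 1 array were tested (18889), with limma 3.58.1 in R 4.3.3 (lmFit, eBayes, two-sided, no block), the 2 residual degrees of freedom being joined with 2.2 of the prior, and Benjamini-Hochberg adjustment. The mice are separate animals, in litters that the labels number. Deviations from the group means correlated within litters (Pearson r = 0.27 across probe sets), and the litter was a block in an alternative fit. Other alternatives changed the filter, the normalization, the prior spread, the test, the probe sets per gene and the arrays included.

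The 12 gene lists, the 8 genes among them, were chosen with earlier results of these data known. Named genes were the 8, Runx3, up to 4 genes per list with the smallest p, with up to 2 of the opposite sign, relatives of the 8 where a statement turns on them, and the nearest patterns to the widest-ranging gene. Others are given as named after their values were seen, or only to list genes under the limit. The fit was tested on simulated data, in which the adjusted limma test recovered 20.9% of 2-fold changes. Smaller changes were not simulated, and the widest difference of the 8 genes was 1.52-fold, so a failed adjusted test does not show that a gene was unchanged. Promoter sequences are from RefSeq (GRCm38.p6), with 5 of the 8 genes listed. Coordinates apply to that build alone.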

Additional observations from a re-analysis of the deposited data

Results flagged for a closer look

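For Klra17 the 2 litters pointed in opposite directions, with cKO minus wt at -0.86 in litter 1 and 0.60 in litter 2. The same held for Ptprs, at -0.05 and 0.01. With 1 array per genotype in each litter, this difference between litters was not tested.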

How the results depend on the processing

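In all 12 alternative settings 0 of the 8 pDC genes passed the adjusted threshold, and the differences of Siglech (0.36 to 0.86), Tcf4 (0.39 to 0.46), Ly6d (0.29 to 0.31), Lag3 (0.13 to 0.43) and Blnk (0.32 to 0.59, in the 10 settings in which it was tested) kept their sign. When limma's p replaced that of the one-way test, 1 gene, Siglech, passed the study's thresholds, as did 493 probe sets. The difference of Ptprs turned from -0.02 to 0.00 with quantile normalization and to 0.02 without wt replicate 1, that of Klra17 to 0.48 without wt replicate 1 and that of Bst2 to 0.06 without cKO replicate 1. With 1 array left out, Ptprs lay between -0.06 and 0.02, Klra17 between -0.74 and 0.48, and Bst2 between -0.30 and 0.06. Over settings that leave out 1 array, the genes whose groups did not overlap numbered 4 to 7 (7 without either wt array), a count that fewer arrays can raise by construction. With 1 probe set per gene, 9894 were tested, the prior was fitted on them alone, and limma's unadjusted p changed too (Tcf4 from 0.00738 to 0.00347). Probe sets past the adjusted threshold numbered 42 in that setting, for a reason that was not tested, 1 with quantile normalization and 2 with a trend in the prior spread. Those past the study's thresholds numbered 135 with the replicate block by litter, which leaves 1 residual degree of freedom, and 112 to 280 without 1 array (112 without either cKO array, 170 without wt replicate 2). Genes of the other lists past them numbered 20, against 9 with the block by litter and 4 to 16 without 1 array (13 without wt replicate 1, 4 without cKO replicate 1, 5 without cKO replicate 2). The block changed no adjusted call and no call by the study's thresholds among the 8 genes. At limma's unadjusted p under 0.05 it raised the number called from 3 to 4, by Lag3 (0.0425). Over all 18889 probe sets it raised that number from 1771 to 2033. At that limit Siglech was lost with quantile normalization (0.0576) and median centring (0.0528), and Ly6d with the trend (0.0857). Over all 18889 probe sets, 1797, 1795 and 1733 were called in these settings in turn. With 1 array left out, 1 genotype holds a single array, so differences are given for these fits and calls at that limit are not. Siglech was at 0.36 without wt replicate 1 and at 0.45 without cKO replicate 2. Tcf4 was at 0.39 without cKO replicate 2, and Ly6d at 0.30 without either cKO array. Klra17 was at 0.48 without wt replicate 1 and at -0.74 without wt replicate 2, and Blnk at 0.59 without cKO replicate 1. Each of the 8 genes has 1 probe set, so averaging probe sets changes nothing. With 1 array left out, the lone array is assumed to vary like the other group. The litter 1 and 2 differences each rest on 1 pair of arrays.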
